A study of Mus musculus with 10 samples.

Results

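Khdc4 and 9 genes known for introns that stay in nuclear transcripts (Clk1, Clk4, Ddx5, Ddx17, Rbm39, Luc7l3, Son, Srrm2 and Pnisr) were measured in kidneys of mice fed rilmenidine and of mice fed control diet. In each of the 10 genes the mean level was lower in the rilmenidine kidneys, with log2 fold changes from -1.47 for Pnisr to -0.41 for Son. The higher control means came mainly from 4 of the 6 control kidneys (control 1, 3, 4 and 5), in which the nuclear noncoding RNA Malat1 was also high. In control 2 and control 6, the levels of most of these genes lay within or near the rilmenidine range. Khdc4 and Srrm2 stayed above it in both kidneys. Ddx17 was above it in control 6, at 118 CPM against at most 94 CPM in rilmenidine kidneys.

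The 10 genes are 10 of 43629 genes in the count table, and each of them is among the 10055 genes that passed the filter on low counts. Khdc4 was selected because its p-value was the smallest among the genes lower in rilmenidine kidneys, so its values in this contrast are given as a description without a test. The genes that followed it by p-value were Irf2bp2, with a log2 fold change of -0.85, and Slc36a1, with -0.87. The other 9 genes were chosen for their introns while results of the same contrast were known, so their p-values are not independent evidence of a direction.

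The kidneys came from male UM-HET3 mice, a genetically heterogeneous stock bred from several inbred strains, at 4 months of age. The 4 rilmenidine mice had received the drug, an imidazoline receptor agonist prescribed against high blood pressure, at 10 ppm in Purina 5LG6 chow for 1 month from the age of 3 months. The 6 control mice were littermates of the same age and sex on the same chow without drug, and the labels name no engineered allele. Each library is labelled as a separate biological replicate, although the extraction text in the labels speaks of liver.

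The libraries held 863605 to 3232063 counts, with a median of 1489031 in control and 2483263 in rilmenidine kidneys. Proximal tubule markers such as Slc34a1 and Kap summed to 40800 to 62490 CPM per library (reads of a gene scaled to a common library total), and the 4 liver markers, albumin among them, to 2.32 to 17.9 CPM. Reads on olfactory and vomeronasal receptor genes, best known from sensory epithelia, made up 51.7 to 436 CPM in 7 libraries and 4.27 to 8.99 CPM in control 6, rilmenidine 3 and rilmenidine 4. Mitochondrial reads made up 7.09% to 15.2% of counts.

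A detained intron is one that is spliced slowly, so that the polyadenylated transcript stays in the nucleus until the intron is removed or the RNA is degraded. Many such introns lie in genes for splicing regulators. In the CLK kinase genes, for which this is well studied, the kinases phosphorylate the SR proteins that act on splicing, and removal of the introns of their own transcripts responds to CLK activity. Nuclear speckles, the bodies in which SR proteins and many splicing factors gather, are built around SON and SRRM2.

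The annotated introns of the CLK genes and of Ddx5 show what such a transcript looks like. Their splice sites are printed here because in these members a transcript of the annotated class retained_intron contains a complete coding intron. Transcripts of other classes were not searched for such introns. In GENCODE M21 (GRCm38), 8 of the 10 genes have a transcript of the class retained_intron, as have 61.3% of the 9646 protein-coding genes tested. A coding intron held whole within such a transcript was found in 3 of the 10 genes, against 27.2% of all coding genes tested. There were 3 such introns in Clk1 (introns 3, 4 and 6), 5 in Clk4 (introns 3, 4, 7 and 8 and a longer one that runs from the start of intron 3 to the end of intron 4) and 1 in Ddx5, with lengths from 82 to 1537 bases (median 387) and a GC content from 26.4% to 38.7%. The 9 introns all began with GT and ended with AG. In Clk1 and Clk4, introns 3 and 4 flank exon 4, which has 91 bases in both genes. In the donor lines below, the first 3 bases are exonic and the capitals mark the GT at the start of the intron. In the acceptor lines the last 3 bases are exonic and the capitals mark the AG at the end of the intron.
Clk1 intron 3, chr1:58420212-58421082, minus strand, donor: gggGTatgagtg
Clk1 intron 3, acceptor: cgcccacttgacgtgtccAGaag
Clk1 intron 4, chr1:58419734-58420120, minus strand, donor: gatGTatagaat
Clk1 intron 4, acceptor: taattattcctcttttttAGatg
Clk4 intron 3, chr11:51272023-51273077, plus strand, donor: tcgGTatgagtg
Clk4 intron 3, acceptor: ctgcccacttgccgttccAGaag
Clk4 intron 4, chr11:51273169-51273559, plus strand, donor: gatGTatagaat
Clk4 intron 4, acceptor: ctttctctcccttactttAGatg
Ddx5 intron 10, chr11:106784019-106784100, minus strand, donor: atgGTatgtatt
Ddx5 intron 10, acceptor: attcatggttgtctttatAGaat

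The donor of intron 4 was identical in Clk1 and Clk4 over 12 of 12 bases, and that of intron 3 over 10 of 12. Compared position by position without gaps, the acceptors matched at 13 of 23 bases in each case. The intron 3 acceptors share a run of bases that is shifted between the genes, which such a comparison counts mostly as mismatches. The 4 introns were 871 and 387 bases long in Clk1 and 1055 and 391 bases long in Clk4. Khdc4 has no coding intron held whole in a retained_intron transcript, like all of the selected genes other than Clk1, Clk4 and Ddx5. Khdc4 lies at chr3:88685803-88712924 on the plus strand with 14 exons in its longest coding transcript. Its 4 retained_intron transcripts touch 5 of its 13 introns without containing any of them whole. The counts were made per gene over exons of the annotated transcripts, and they do not separate spliced from intron-containing RNA. Detention of an intron was therefore not measured here, and every value below is a level of the whole gene.

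**Figure D1:**
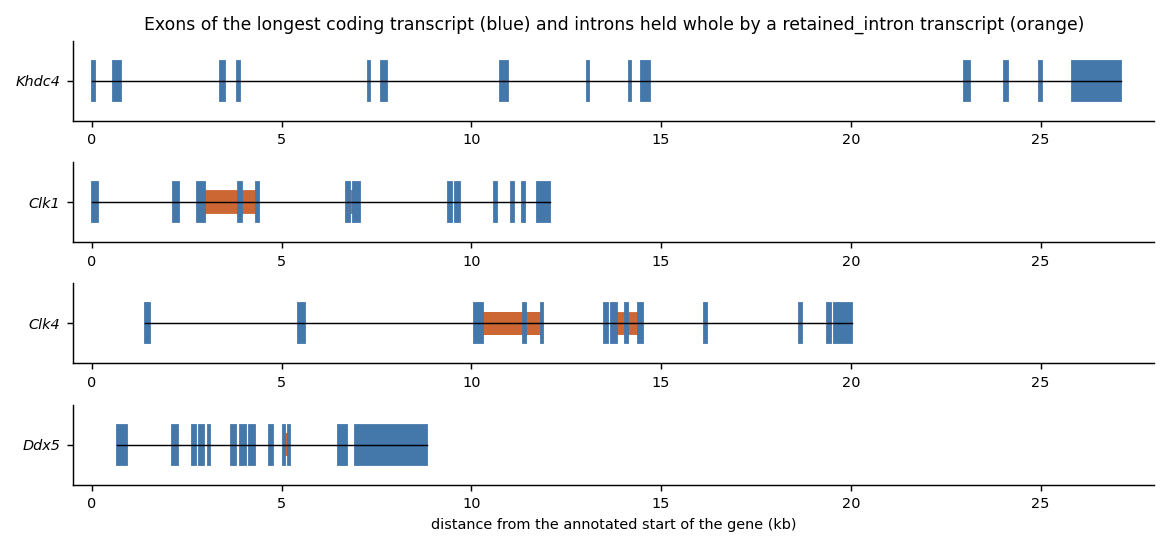
Exons of the longest coding transcript (blue) of Khdc4, Clk1, Clk4 and Ddx5 and the introns held whole by an annotated retained_intron transcript (orange), against the distance from the annotated start of the gene in kb. In Clk1 and Clk4 the longest orange stretch covers introns 3 and 4 on both sides of exon 4, Clk4 also has introns 7 and 8 marked, the 82-base intron of Ddx5 and the 87-base intron 6 of Clk1 are barely visible at this scale, and Khdc4 has none.

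The promoter of Khdc4 is printed because Khdc4 led the selection and moved with the other genes between kidneys. It covers the region around the start site in RefSeq (GRCm38.p6, chr3:88685537-88685836, plus strand), and the capitals mark a CCAAT box (CCAAT) and an ETS core (CCGGAA), both searched on the 2 strands.
Khdc4 promoter: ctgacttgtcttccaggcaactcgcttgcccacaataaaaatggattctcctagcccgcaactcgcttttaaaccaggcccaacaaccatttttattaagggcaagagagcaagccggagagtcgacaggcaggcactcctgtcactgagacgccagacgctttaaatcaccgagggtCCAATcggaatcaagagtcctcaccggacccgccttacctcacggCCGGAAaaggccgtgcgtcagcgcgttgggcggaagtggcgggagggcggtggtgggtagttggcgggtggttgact
Promoter entries were matched for 8 of the 10 genes, not for Clk1 and Pnisr, and some genes have several, 13 in all. CCAAT was present in 4 of these 13 promoters and in 37.4% of all 32851 promoters of the same length. CCGGAA was present in 4 of the 13, which belong to 3 of the 8 genes, and in 14.9% of all promoters. Windows of the same gene are not independent. These letter matches are a description of the windows and say nothing of binding.

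Khdc4 encodes a KH domain RNA-binding protein that associates with the spliceosome. Its normalized level in the control kidneys ran from 48.0 to 119 CPM with a median of 99.6 CPM, and in the rilmenidine kidneys it was 29.0, 35.3, 30.1 and 40.9 CPM. The groups did not overlap. Control 1, 3, 4 and 5 held 83.1, 116, 119 and 117 CPM, whereas control 2 and control 6 held 53.3 and 48.0 CPM, closer to the highest rilmenidine kidney. The means were 89.4 ± 32.9 CPM (SD, n = 6) and 33.8 ± 5.47 CPM (SD, n = 4), a log2 fold change of -1.38 with a standard error of 0.26. These values rest on 50 to 202 counts per library. The annotated antisense gene Gm43714 overlaps the first exon of Khdc4 and was not counted as a gene of its own. The strand setting of the counting is not given in the sources used here, so reads within that overlap cannot be assigned to a strand. The overlap lies at the start of Khdc4, whereas the libraries were made from 3′ ends.

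Clk1 and Clk4 encode dual-specificity kinases that phosphorylate SR proteins. Clk1 ranged from 39.0 to 177 CPM in control kidneys with a median of 116 CPM, and the rilmenidine kidneys held 48.7, 61.4, 31.1 and 44.0 CPM. The groups overlapped, because control 2 and control 6, at 42.0 and 39.0 CPM, lay inside the rilmenidine range. The log2 fold change was -1.17 with a 95% interval from -1.94 to -0.40, and it did not pass the threshold (edgeR quasi-likelihood test, Benjamini-Hochberg adjusted p = 0.285). Clk4 ranged from 15.6 to 58.9 CPM in control kidneys with a median of 40.2 CPM, and the rilmenidine kidneys held 16.24, 32.04, 15.04 and 17.8 CPM. Rilmenidine 2 lay above control 1, which held 29.2 CPM although its Malat1 was high. Clk4 had a log2 fold change of -0.92 with a 95% interval from -1.69 to -0.16 (edgeR quasi-likelihood test, adjusted p = 0.371). With 26 to 100 counts per library, Clk4 had the fewest reads of the 10 genes.

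Ddx5 and Ddx17 encode paralogous DEAD-box RNA helicases that act in splicing and transcription. Ddx5 ranged from 369 to 779 CPM in control kidneys with a median of 705 CPM, and the rilmenidine kidneys held 423, 330, 346 and 389 CPM. Control 2 and control 6 held 369 and 414 CPM, inside the rilmenidine range. The log2 fold change of Ddx5 was -0.74 with a 95% interval from -1.18 to -0.31 (edgeR quasi-likelihood test, adjusted p = 0.237). Ddx17 ranged from 72.5 to 263 CPM in control kidneys with a median of 165 CPM, and the rilmenidine kidneys held 70.2, 83.1, 74.2 and 94.0 CPM. Control 6, at 118 CPM, lay above the 4 rilmenidine kidneys and control 2 within them. For Ddx17 it was -1.08 with a 95% interval from -1.68 to -0.48 (edgeR quasi-likelihood test, adjusted p = 0.229).

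Rbm39 encodes an RNA-binding protein with an RS domain, and Luc7l3 a protein of the LUC7 family associated with the U1 particle that recognizes donor sites. Rbm39 ranged from 157 to 349 CPM in control kidneys with a median of 258 CPM, and the rilmenidine kidneys held 170, 140, 160 and 151 CPM. Control 2, at 177 CPM, lay just above the rilmenidine range and control 6 lay inside it. The log2 fold change of Rbm39 was -0.69 with a 95% interval from -1.10 to -0.28 (edgeR quasi-likelihood test, adjusted p = 0.256). Luc7l3 ranged from 104 to 287 CPM in control kidneys with a median of 237 CPM, and the rilmenidine kidneys held 122, 96.1, 104 and 118 CPM. Control 6, at 132 CPM, was above the rilmenidine kidneys and control 2 was among them. For Luc7l3 it was -0.95 with a 95% interval from -1.47 to -0.44 (edgeR quasi-likelihood test, adjusted p = 0.225).

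Son and Srrm2 encode the large proteins on which nuclear speckles form, and Pnisr encodes an SR-related protein found in speckles. Son ranged from 233 to 411 CPM in control kidneys with a median of 364 CPM, and the rilmenidine kidneys held 231, 247, 247 and 295 CPM. Rilmenidine 4 was above control 2 and control 6, which held 233 and 263 CPM, and the log2 fold change was the smallest of the 10 in size, -0.41 with a 95% interval from -0.75 to -0.06 (edgeR quasi-likelihood test, adjusted p = 0.385). Srrm2 was the other gene whose groups did not overlap. It ranged from 116 to 203 CPM in control kidneys with a median of 137 CPM, and the rilmenidine kidneys held 81.8, 101, 95.5 and 102 CPM. Both control kidneys with low Malat1 lay above them, at 116 and 130 CPM. For Srrm2 the log2 fold change was -0.61 with a 95% interval from -0.93 to -0.28 (edgeR quasi-likelihood test, adjusted p = 0.225). Srrm2 shares its last exon bases with the opposite-strand gene Elob, which had 55 to 307 counts per library. Exons of Son overlap Donson (4 to 25 counts) and those of Ddx17 overlap Kdelr3 (0 to 5 counts), both also on the opposite strand. These overlaps lie at the 3′ ends of Srrm2, Son and Ddx17, the ends from which the libraries were made. With the strand setting not given, reads within them cannot be assigned to a strand.

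Pnisr had the largest difference of the 10. It ranged from 68.6 to 278 CPM in control kidneys with a median of 198 CPM, and the rilmenidine kidneys held 79.4, 54.3, 51.1 and 70.6 CPM. Control 2 and control 6, at 75.5 and 68.6 CPM, lay inside the rilmenidine range. Its log2 fold change was -1.47 with a 95% interval from -2.20 to -0.74 (edgeR quasi-likelihood test, adjusted p = 0.211).

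**Figure D2:**
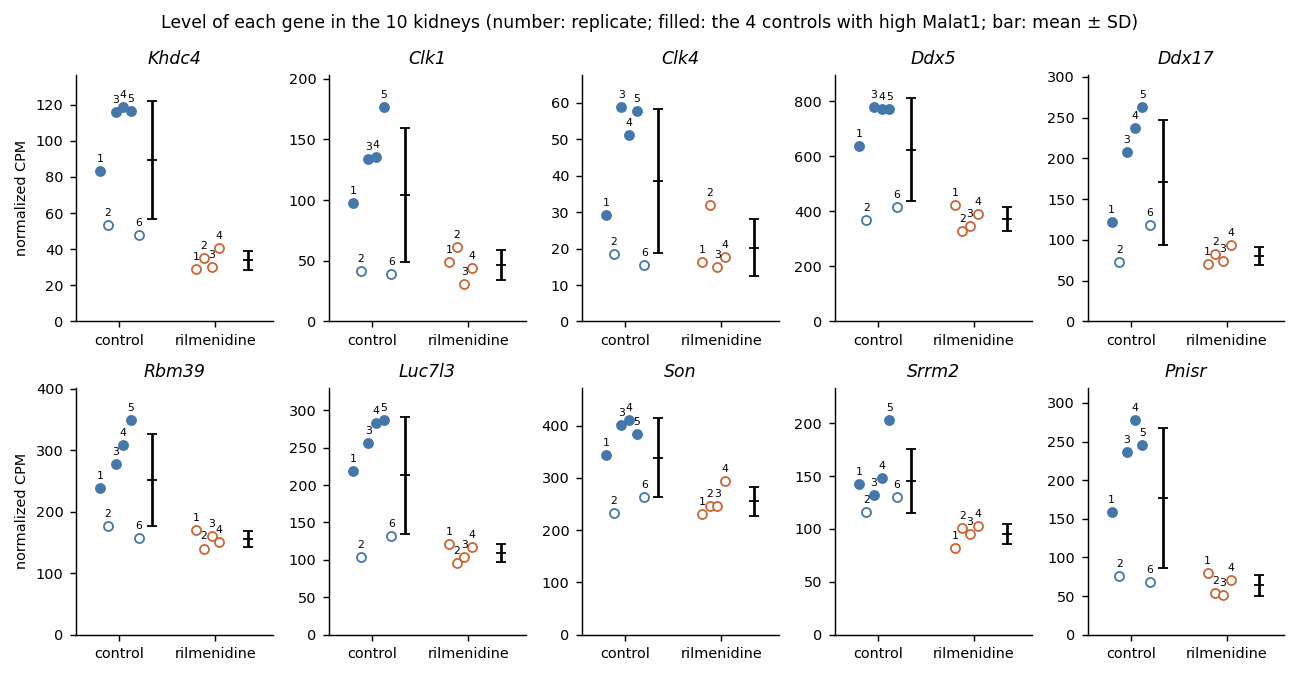
Normalized CPM of the 10 genes in each kidney, with the replicate number above each point, filled points for the 4 control kidneys with high Malat1 and bars for the mean ± SD of 6 control and 4 rilmenidine kidneys. The filled points lie highest in 9 of the 10 panels, and in Clk4 rilmenidine 2 exceeds control 1.

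No gene passed an adjusted p of 0.05 in edgeR's quasi-likelihood test (0 of 10055, 0%), and the smallest adjusted p was 0.174. At an unadjusted p under 0.05, 616 genes (6.13%) were lower and 445 (4.43%) were higher in rilmenidine kidneys, and the 9 genes other than Khdc4 were among the lower ones. The median log2 fold change of the 10 genes was -0.94, beside 0.0021 over all genes tested. The groups did not overlap in 2 of the 10, Khdc4 and Srrm2, and rilmenidine lay below control without overlap in 0.875% of all genes. The selection used this contrast, so nothing is read from these shares. Calls in other fits of the same contrast are counted for the 9 genes without Khdc4, and they share its libraries. DESeq2 called 60 genes (0.597%), Ddx5, Ddx17, Luc7l3 and Srrm2 among them, and edgeR's likelihood ratio test called 44 (0.438%), Pnisr among them. With every gene of at least 1 count kept, the quasi-likelihood test called 241 of 27565 genes (0.874%), 8 of the 9 among them, all but Son. The log2 fold changes of the 9 were nearly the same in that fit, but most standard errors were smaller. The standard error went from 0.345 to 0.169 for Pnisr and from 0.363 to 0.176 for Clk1, whereas Srrm2 went from 0.153 to 0.163. These calls thus came with a smaller estimated spread rather than larger differences. Single kidneys changed the quasi-likelihood count: 33 genes (0.325%) were called without control 2 (Ddx17, Luc7l3 and Pnisr among them), 37 (0.365%) without control 6 (Pnisr among them) and 6 without rilmenidine 1, none of the 9. In bulk tissue, less RNA per cell and fewer cells of a type cannot be told apart.

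Malat1, a noncoding RNA retained in nuclear speckles, held 1482, 1182, 1466 and 2100 CPM in control 1, 3, 4 and 5, but 398 and 284 CPM in control 2 and control 6. The rilmenidine kidneys held 339, 351, 306 and 394 CPM. The kidneys thus fell into 2 separate sets, one of 4 control kidneys and one of 6 that mixed both groups. Neat1, the noncoding RNA that builds paraspeckles, was also higher in the first set, at 534 to 1426 CPM against 156 to 294 CPM in the other 6 kidneys.

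In control 1, 3, 4 and 5, 9 of the 10 genes were higher than in any of the other 6 kidneys, Clk4 being the exception. The same held for 508 of all genes tested (5.05%). The margin was small for Ddx17 and Srrm2. Their lowest values in these 4 kidneys were 122 and 132 CPM, and their highest elsewhere 118 and 130 CPM. Only Khdc4 and Srrm2 of the 10 had both remaining control kidneys above the 4 rilmenidine kidneys, an order found in 580 of all genes (5.77%). The 10 genes were selected with the treatment contrast known, and the kidneys of high Malat1 are all controls. Nothing is therefore read from these shares. Because Malat1 fell into separate sets, no correlation with Malat1 is given over the 10 kidneys. Within the 6 kidneys of low Malat1, Pearson's r with Malat1 ran from -0.409 for Ddx17 to 0.402 for Clk1, Spearman's rho from -0.371 for Luc7l3 to 0.771 for Clk4, and no gene passed the threshold (10 genes, exact two-sided permutation test over pairings, lowest p = 0.415 for r and 0.103 for rho, adjusted p at least 0.881). These values depended on 2 kidneys. After control 2 and control 6, the kidneys farthest from the median Malat1, were left out, r over the 4 rilmenidine kidneys ran from -0.425 for Rbm39 to 0.869 for Khdc4, and Ddx17 went from -0.409 to 0.828 and Luc7l3 from -0.378 to 0.352.

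**Figure D3:**
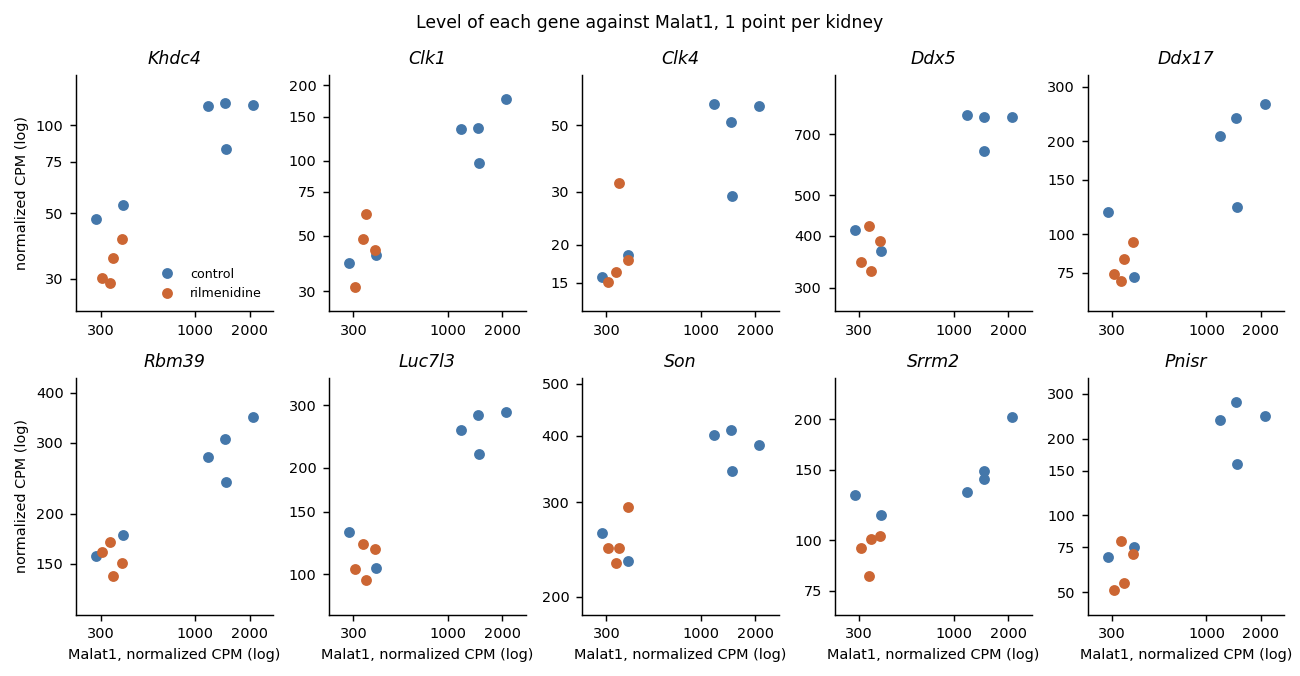
Normalized CPM of each of the 10 genes against normalized CPM of Malat1, both on log axes, with 1 point per kidney (6 control in blue, 4 rilmenidine in orange). The 4 control kidneys between 1182 and 2100 CPM of Malat1 stand apart on the right, and the other 2 control kidneys lie beside the rilmenidine kidneys at 284 to 398 CPM of Malat1.

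The fit was repeated with log2 Malat1 as a covariate and, chosen after seeing the data, without control 1, 3, 4 and 5, which leaves 2 control kidneys. The median log2 fold change of the 10 genes was then -0.18 and -0.11. These 4 kidneys held the highest levels of 9 of the 10 genes, so leaving them out had to lower the control means. Malat1 was high only in control kidneys, so the covariate is in part a stand-in for the treatment groups. No conclusion is drawn from the smaller values. With the covariate, Khdc4 had a log2 fold change of -0.63 and Srrm2 -0.34, while Clk1 and Clk4 turned to 0.10 and 0.13. Without the 4 kidneys, Khdc4 had -0.57 and Srrm2 -0.37, and Clk1, Clk4 and Son stood at 0.18, 0.24 and 0.04. Of the 9 genes other than Khdc4, Srrm2 had an unadjusted p under 0.05 in both fits and the others had not, and 0 genes of the whole table passed the adjusted threshold in edgeR's quasi-likelihood test. At an unadjusted p under 0.05, 156 genes (1.55%) were lower and 149 higher with the covariate, and 178 (1.65%) lower and 169 higher without the 4 kidneys. Malat1 was measured in the same libraries and whether it responds to the treatment was not tested apart from them, so these fits are given as values beside the first one.

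Library size also differed between the sets. Control 1, 3, 4 and 5 held 863605 to 1644042 counts and the other 6 kidneys 1787638 to 3232063. In a fit with log2 library size added, the 10 genes had log2 fold changes below 0, with a median of -0.57, and of the 9 besides Khdc4, Ddx17 and Srrm2 had an unadjusted p under 0.05, beside 2.13% of all genes that were lower. Among the 7 libraries with at least 10 CPM on receptor genes, the median was -0.96. The summed level of 5 immune cell markers was 39.6 to 76.4 CPM in control 1, 3, 4 and 5, 82.1 to 170 CPM in control 2 and control 6, and 95.6 to 106 CPM in the rilmenidine kidneys. The 4 liver markers summed to 2.32 to 6.00 CPM in the first 4 kidneys and 6.62 to 17.9 CPM in the others, which are sums of few reads. Blood markers summed to 995 to 3274 CPM in these 4 and 2722 to 8218 CPM in the others, with overlap, and those of the tubule segments, podocytes and endothelium overlapped as well. Between the treatments, some tubule markers differed at an unadjusted p under 0.05, without passing the adjusted threshold in edgeR's quasi-likelihood test. The 3 principal cell markers had log2 fold changes above 0, 2 of them at that p, beside 4.43% of all genes that were higher. Aqp2, the water channel, had 0.58 and rilmenidine above control without overlap, as had 80 of the 10055 genes tested. The 4 distal convoluted tubule markers had values below 0, 2 of them at that p, beside 6.13% of all genes that were lower. Trpm6, a magnesium channel, had -1.01 and rilmenidine below control without overlap, as had 0.875% of all genes. Umod, the uromodulin gene of the thick ascending limb, had 0.61. The part of library size and of these cell types in the result was not tested.

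**Figure D4:**
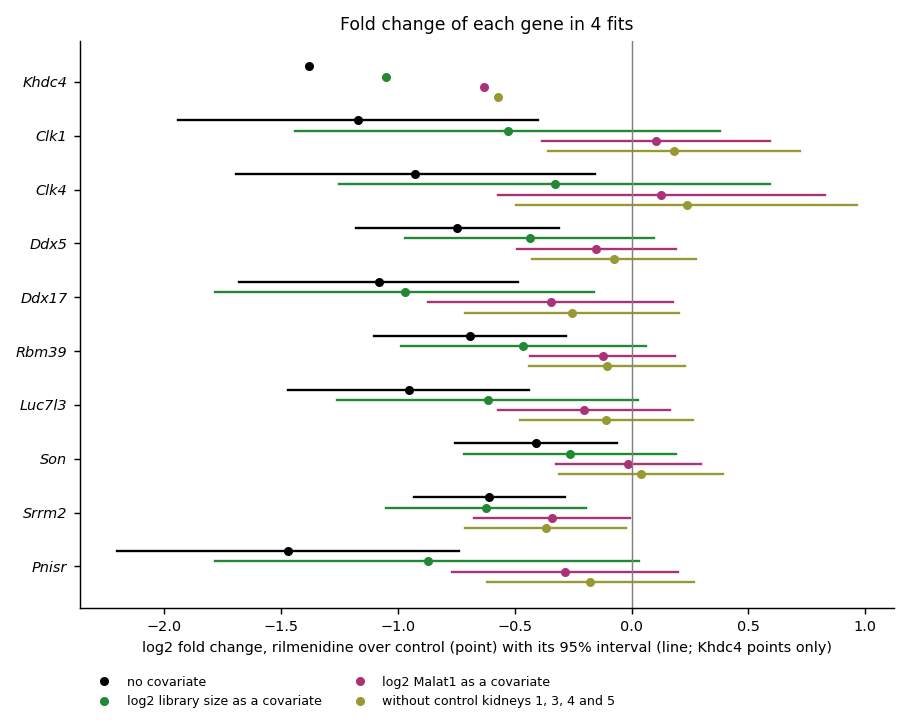
Log2 fold change of rilmenidine over control for the 10 genes in 4 fits, with points for the estimate and lines for its 95% interval (Khdc4, selected on this contrast, as points only). With Malat1 as a covariate or without the 4 control kidneys the points move toward 0, to -0.63 and -0.57 for Khdc4. These kidneys held the highest levels of 9 of the 10 genes, so leaving them out had to lower the control means.

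Further genes of the same pathway were read from lists that were written with earlier results of these data known, and no gene of them passed the adjusted threshold. Of 18 tested genes known for retained or detained introns, 18 had a log2 fold change below 0, with a median of -0.71, and 13 had an unadjusted p under 0.05, beside 6.13% of all genes that were lower. The lowest was Ogt, the O-GlcNAc transferase, at 108 ± 54.6 CPM (SD, n = 6) in control and 38.8 ± 9.30 CPM (SD, n = 4) in rilmenidine kidneys, a log2 fold change of -1.46. The highest was Taf1d, a subunit of an RNA polymerase I factor, at -0.01. Of the 18, 10 stayed below 0 with Malat1 as a covariate and 8 without the 4 control kidneys.

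Among 27 tested RS domain and SR-related proteins, 26 lay below 0, with a median of -0.38. An unadjusted p under 0.05 was found for 13 of them, beside 6.13% of all genes that were lower. They ran from Pnn (pinin, a speckle protein associated with the exon junction complex), at -1.33, to the splicing factor Cwc25, at 0.14. With Malat1 as a covariate 20 of the 27 were below 0, with a median of -0.06, and without the 4 kidneys 14 were. The 5 tested SR protein kinases all lay below 0, as did 49.7% of all genes tested. Their median was -0.27, from Prpf4b at -0.69 to Srpk2 at -0.07. Among these kinases 1 had an unadjusted p under 0.05, beside 6.13% of all genes that were lower. The tested KH domain proteins, to whose family Khdc4 belongs, had a median of -0.10. Of these 14 genes, 11 lay below 0 and 1 had an unadjusted p under 0.05, a share near that of all genes. They ran from Fubp1, a single-strand DNA and RNA-binding protein, at -0.80 to Khdrbs3 at 0.07.

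Malat1, Neat1 and Kcnq1ot1, the 3 tested nuclear noncoding RNAs, had log2 fold changes of -1.73, -2.22 and -0.72. Heat and cold responsive genes, which change with handling of tissue, ran from Hspa1a at -1.22 to Hspa8 at 0.35, with 4 of 7 below 0. Immediate early genes ran from Zfp36 at -0.25 to Ier3 at 0.68, with 3 of 6 below 0.

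**Figure D5:**
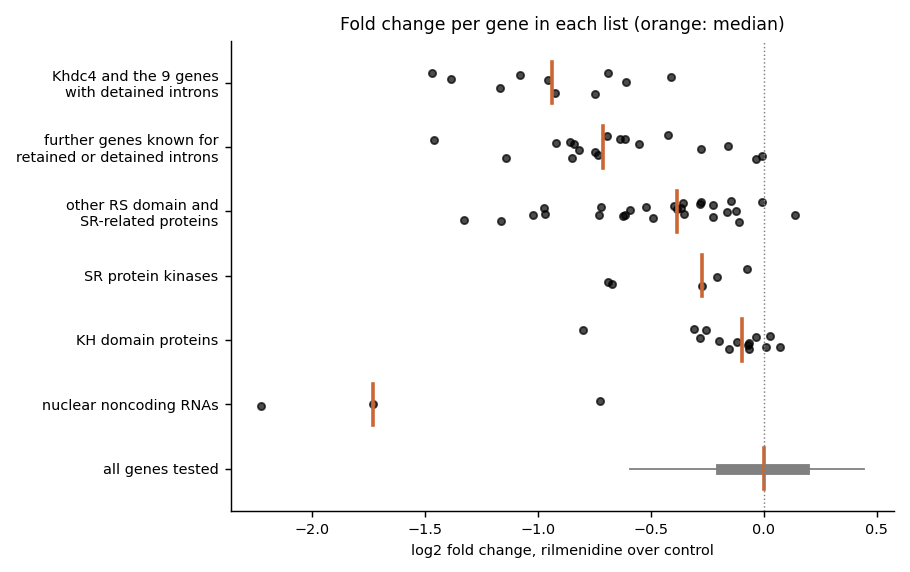
Log2 fold change of rilmenidine over control per gene (points) in each list, with the median in orange, beside all 10055 genes tested (grey bar from the 25th to the 75th percentile, -0.19 to 0.18, and line from the 5th to the 95th). The medians run from -1.73 for nuclear noncoding RNAs through -0.94 and -0.71 for the genes with detained introns to -0.10 for KH domain proteins and 0.0021 for all genes.

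The genes whose log2 level was most like that of Khdc4 over the 10 kidneys were Dusp11, an RNA phosphatase, with Pearson's r = 0.983, Ttc14 with 0.977, the Luc7l3 paralog Luc7l2 with 0.974, the histone methyltransferase Kmt5c with 0.967 and the splicing factor Prpf38b with 0.966, out of 10054 genes. Their points share the same libraries and the split by Malat1, so these values are a description. The other 9 selected genes ranked from 15 (Pnisr) to 197 (Clk4). Dusp11 held 59.9 and 59.3 CPM in control 2 and control 6, 76.3 to 103 CPM in the other control kidneys and 47.9 to 55.3 CPM in rilmenidine kidneys. This is the same order of the 3 sets of kidneys as in Khdc4, for which likeness Dusp11 was picked. Ttc14, Luc7l2 and Prpf38b kept that order too. Kmt5c did not, with control 6 at 14.0 CPM below rilmenidine 2 at 15.2 CPM.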

How the data were processed

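Kidney RNA of 6 control and 4 rilmenidine mice was made into 3′-end libraries with molecular identifiers. The authors deposited whole-number counts per Ensembl gene without normalization. Per the submitters' processing notes, Trimmomatic 0.32, STAR 2.5.2b, featureCounts 1.5 and the build mm10 were used. The strand setting, the annotation release and the collapsing of molecular identifiers are not given in the sources used here, so amplification may add to the spread. The supplementary methods name more control mice than the 6 libraries used here.

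Symbols were taken from GENCODE M21 (42462 identifiers matched). A gene was kept where 66.6% or more of the libraries held 6 reads or more (10055 genes). The RLE-scaled counts of these were fitted in edgeR 4.0.16 (R 4.3.3) with treatment as the one term, the quasi-likelihood test was applied, and Benjamini-Hochberg adjustment ran over the whole table. Normalized CPM are CPM of the RLE-scaled library. The common biological coefficient of variation was 0.221. The script was tested on simulated data. Alternatives were TMM, other count filters, DESeq2 1.42.0, edgeR's likelihood ratio test, covariates, a replicate block, fewer libraries and leaving out each kidney. The closest libraries differed by a chi-square of 3.67 per degree of freedom, so none was counted as a copy of another.

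Members and lists were chosen with earlier results of these data known. Named are the 10 genes, Malat1 and Neat1, in each list the genes with the largest and smallest log2 fold change, and the 5 genes most like Khdc4. In the marker lists and in the list of noncoding RNAs the naming was kept to examples or widened to the whole list. Irf2bp2 and Slc36a1 are named as the genes next to Khdc4 by p-value.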

Additional observations from a re-analysis of the deposited data

Results flagged for a closer look

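Clk4 in rilmenidine 2 lay apart from the other 3 rilmenidine kidneys. It held 32.04 CPM, the nearest of the others held 17.8 CPM, and the gap took up 0.838 of the range of the 4 kidneys. This was 1 of 20 groups of kidneys examined (10 genes in 2 treatment groups), and chance marks about 1 in 20 such groups. Without rilmenidine 2 the log2 fold change of Clk4 was -1.21 in place of -0.92.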

How the results depend on the processing

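The count of genes called was 0 in the reported fit, 241 of 27565 with every gene of at least 1 count kept, 60 with DESeq2, 44 with edgeR's likelihood ratio test, 3 with the replicate number as a block and 0 to 37 when 1 kidney was left out. It was 0 with the other alternatives, TMM, 10 counts in every sample, the library-size or Malat1 covariate, the 7 libraries with receptor reads and the fit without 4 control kidneys. The median log2 fold change of the 10 genes was -0.94, and between -1.09 and -0.80 without 1 kidney. It was -0.18 with Malat1 as a covariate and -0.11 without control 1, 3, 4 and 5, a set chosen after seeing the data. These 4 kidneys held the highest levels of 9 of the 10 genes, so leaving them out had to lower the control means. The sign turned for Clk1 (0.10 with the covariate, 0.18 without the 4 kidneys), Clk4 (0.13 and 0.24) and Son (0.0404 without the 4 kidneys); the cause was not tested. Same-numbered kidneys had correlations of their deviations of 0.0762, 0.0775, -0.0768 and -0.00704. Such low values in 4 pairs cannot exclude a pairing, and the reported fit uses none. With the block the median was -0.89. The standard errors of the 10 genes were then smaller except for Srrm2, from 0.345 to 0.243 for Pnisr and from 0.153 to 0.155 for Srrm2. Libraries of 863605 counts upward left Clk4 with 26 to 100 reads, which limits its precision. Pooled reads per gene do not show introns, and tests cover counting error and the spread between animals.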
